A study of Mus musculus with 2 samples.

Results

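The let-7 family is described here at its 9 loci that do not lie next to a gene of the miR-99/100 or miR-125 families: Mirlet7a-1, Mirlet7f-1 and Mirlet7d on chromosome 13, Mirlet7b and Mirlet7c-2 on chromosome 15, Mirlet7f-2 and Mir98 on chromosome X, Mirlet7g on chromosome 9 and Mirlet7i on chromosome 10. The members are taken by gene symbol and position, and make up 9 of the 2202 annotated microRNA (miRNA) genes in the deposited tables. The tissue was hippocampus of wild-type C57BL/6 mice, strain B6NCrl, described as male adults 6 months old, with the sex field itself reading as not collected; no treatment or engineered allele is given. The labels call the tissue a layer of the hippocampus without naming the layer. There was 1 group of 2 miRNA-seq libraries, replicates 1 and 2. Both carry one donor identifier, and separate animals are not stated, so the spread between the libraries may be technical. No conditions were compared, and the questions were how much each locus contributed and how far the libraries differed.

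let-7 miRNAs are short regulatory RNAs cut from hairpin precursors, first by the nuclear enzyme Drosha and then by Dicer, and loaded into Argonaute proteins, where the seed near the 5′ end pairs with target messenger RNAs. They are known as regulators of developmental timing that build up as cells differentiate, they are abundant in the adult brain, and the messengers of Lin28a, Hmga2 and Ras genes are among their classic targets. In stem cells and embryos the RNA-binding protein LIN28 holds back the maturation of let-7 precursors.

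The mature sequences are shown first, because the loci differ by few bases and the counts depend on those bases. The 9 loci encode 8 distinct 5′ arms, printed 5′ to 3′ from RefSeq (GRCm38.p6, the build also called mm10), with the seed, bases 2 to 8, in capitals.
let-7a-5p (Mirlet7a-1): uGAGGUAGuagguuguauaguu
let-7f-5p (Mirlet7f-1 and Mirlet7f-2): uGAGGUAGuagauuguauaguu
let-7d-5p (Mirlet7d): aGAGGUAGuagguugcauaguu
let-7b-5p (Mirlet7b): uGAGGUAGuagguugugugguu
let-7c-5p (Mirlet7c-2): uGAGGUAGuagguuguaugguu
let-7g-5p (Mirlet7g): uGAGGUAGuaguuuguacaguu
let-7i-5p (Mirlet7i): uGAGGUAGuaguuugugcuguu
miR-98-5p (Mir98): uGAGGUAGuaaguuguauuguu

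All 9 loci, Mir98 among them despite its name, share the seed GAGGUAG, and every 5′ arm is 22 bases long. Positions of changes are counted from 1 at the 5′ end of let-7a-5p, whose base is given before the position and the other arm's base after it. let-7f differs from let-7a by G12A and let-7c by A19G. let-7b carries A17G and A19G, let-7d U1A and U16C, let-7g G12U and U18C, and miR-98 G11A and A19U. let-7i stands furthest from let-7a, with G12U, A17G, U18C and A19U.

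Whether a read can be placed at 1 locus follows from these letters, and only reads placed once were counted. Among the 2202 annotated hairpins, the 5′ arms of Mirlet7b, Mirlet7d, Mirlet7g, Mirlet7i and Mir98 each occur in 1 hairpin, as do their 3′ arms. The shortest start of the 5′ arm found in 1 hairpin was 17 bases for Mirlet7b, Mirlet7g and Mirlet7i, and it was within 15 bases, the shortest length tried, for Mirlet7d and Mir98. The let-7a 5′ arm stands in 2 hairpins, Mirlet7a-1 and Mirlet7a-2. The let-7c 5′ arm also stands in 2, Mirlet7c-1 and Mirlet7c-2, and the let-7f 5′ arm in Mirlet7f-1 and Mirlet7f-2.

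The 3′ arms separate some of these copies and not others, and are printed for the 4 loci concerned.
let-7a-1-3p (Mirlet7a-1): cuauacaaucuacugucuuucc
let-7c-2-3p (Mirlet7c-2): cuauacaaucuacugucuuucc
let-7f-1-3p (Mirlet7f-1): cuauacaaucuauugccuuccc
let-7f-2-3p (Mirlet7f-2): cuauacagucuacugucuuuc

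Mirlet7a-1 and Mirlet7c-2 have the same 3′ arm, so neither of their arms is held by 1 annotated hairpin alone. The 3′ arms of Mirlet7f-1 and Mirlet7f-2 each occur in 1 hairpin. The counts of these 4 loci are therefore uncertain as levels of let-7a, let-7c and let-7f: a read of the exact shared arm stands in no gene's count. Copies outside annotated hairpins were not searched.

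The 9 loci together held 25.6% ± 0.594 of the reads counted on miRNA genes (SD, n = 2), the rest of the counted reads lying on other annotated genes, Mir139 among them. Replicate 1 gave 26.0% (1104006 reads, exact 95% binomial interval 25.95 to 26.04%), and replicate 2 gave 25.2% (1268154 reads, 25.12 to 25.19%). Nearly all of this came from Mirlet7b, Mirlet7i, Mirlet7g and Mirlet7d, which made up 97.6% of the 9 loci's reads in replicate 1 and 98.1% in replicate 2. The other 5 loci held 0.621% and 0.472% of all counted reads in replicates 1 and 2. With Mir139 left out of the denominator, the mean share of the 9 loci was 30.3%. Reads placed at several loci, 43.8% of the library in replicate 1 and 45.7% in replicate 2, are outside all of these shares. CPM, the counts of a library scaled to a fixed sum of 1000000 over all miRNA genes, is used for levels, and these were not divided by length, since all the 5′ arms have the same length.

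**Figure D1:**
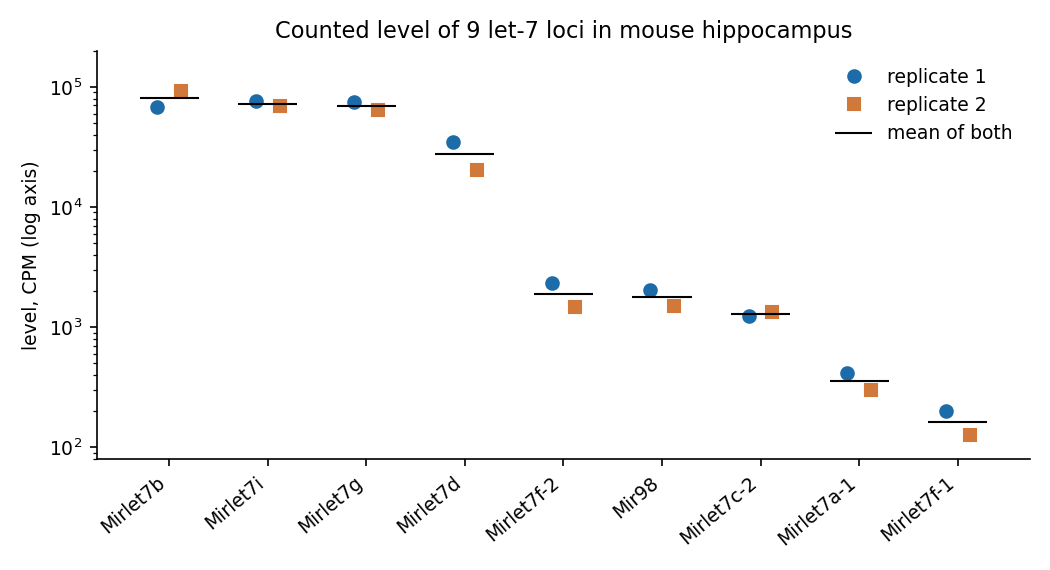
Level of each of the 9 let-7 loci in CPM on a log axis, with 1 circle for replicate 1, 1 square for replicate 2 and a bar for their mean. Mirlet7b, Mirlet7i, Mirlet7g and Mirlet7d stand apart from the rest in both libraries, at 20415 CPM or more, and the other 5 loci reach 2323 CPM at most.

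Mirlet7b (ENSMUSG00000065564.1, chr15:85707319-85707403, plus strand), within an exon of the noncoding gene Lncppara, had 67728 CPM in replicate 1, below the 92761 CPM of replicate 2. Its mean, 80245 ± 17701 CPM (SD, n = 2), was the highest of the 9. Mirlet7i (ENSMUSG00000065406.3, chr10:122985640-122985724, minus strand), within an exon of the transcribed pseudogene D630033A02Rik, had 76055 and 69405 CPM in replicates 1 and 2. Mirlet7g (ENSMUSG00000065440.1, chr9:106178840-106178927, plus strand), in an intron of Wdr82, which encodes a subunit of histone methyltransferase complexes, had 75049 and 64237 CPM. The ranges of Mirlet7b, Mirlet7i and Mirlet7g overlapped, and their order depended on the library: Mirlet7i led in replicate 1, at rank 2 of all genes, and Mirlet7b led in replicate 2, also at rank 2.

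Mirlet7d (ENSMUSG00000065453.1, chr13:48536012-48536114, minus strand) had 34902 CPM in replicate 1, above the 20415 CPM of replicate 2. Its range lay below that of Mirlet7g, and its mean was 2.52 times lower. The next locus in order, Mirlet7f-2, had a mean 14.6 times below that of Mirlet7d, which was the widest step in the order.

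Mirlet7f-2 (ENSMUSG00000065602.1, chrX:151912346-151912428, plus strand) had 2323 CPM in replicate 1, above the 1466 CPM of replicate 2. Its neighbour Mir98 (ENSMUSG00000065536.2, chrX:151913214-151913321, plus strand) had 2050 and 1486 CPM. Both lie in an intron of Huwe1, an E3 ubiquitin ligase gene, and their ranges overlapped. Mir98 and Mirlet7f-2 did not differ beyond their spread, while both arms of Mir98 occur in 1 hairpin and the 5′ arm of Mirlet7f-2 occurs in 2.

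Mirlet7c-2 (ENSMUSG00000065608.1, chr15:85706603-85706697, plus strand), within an exon of Lncppara, had 1225 and 1347 CPM in replicates 1 and 2, below the range of Mir98. Mirlet7a-1 (ENSMUSG00000065421.3, chr13:48538179-48538272, minus strand) had 413 and 297 CPM. Mirlet7f-1 (ENSMUSG00000105621.1, chr13:48537829-48537917, minus strand) was the lowest, with 199 CPM from 846 reads in replicate 1 and 125 CPM from 631 reads in replicate 2. The ranges of Mirlet7c-2, Mirlet7a-1 and Mirlet7f-1 did not overlap. All 9 loci stood far above the limit that a count of 0 allows, which was 3 reads, or 0.706 and 0.595 CPM in replicates 1 and 2.

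The 4 highest loci all have arms held by 1 hairpin each, and the 4 loci with a shared 5′ arm reached 2323 CPM at most. Mir98 was the exception, with arms of its own and a low level. How much of the difference between shared and unshared arms comes from reads that were placed at several loci was not tested; such reads made up 43.8% of the library in replicate 1 and 45.7% in replicate 2.

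Loci that lie close together can be cut from one primary transcript, so the clusters were compared within each library, where the scaling of the libraries plays no part. The shares are of counted reads only. The 5′ arms of Mirlet7a-1, Mirlet7f-1, Mirlet7c-2 and Mirlet7f-2 each stand in 2 hairpins, and reads of those exact arms are in no count. A share therefore does not give the output of a locus, and how far it is shifted was not tested. On chromosome 13 the 3 hairpins lie within exons of the long noncoding gene 6720427I07Rik, with 261 bases between Mirlet7a-1 and Mirlet7f-1 and 1714 bases between Mirlet7f-1 and Mirlet7d. Mirlet7d held 98.3% of the cluster's reads in the replicate 1 library (exact 95% interval 98.2 to 98.3%), and 98.0% in the other (97.9 to 98.1%). In replicates 1 and 2, Mirlet7a-1 held 1.16% and 1.43%, and Mirlet7f-1 held 0.561% and 0.601%. The mean CPM of Mirlet7d was 171 times that of Mirlet7f-1.

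On chromosome 15, where 621 bases separate Mirlet7c-2 from Mirlet7b, most counted reads again came from 1 locus, with the exact 5′ arm of Mirlet7c-2 again in no count. Mirlet7b held 98.2% of the pair's reads in replicate 1 and 98.6% in replicate 2, and its mean CPM was 62.4 times that of Mirlet7c-2. The counted reads of the pair in Huwe1, separated by 785 bases, were nearly even. Mirlet7f-2 held 53.1% of them in the replicate 1 library (exact 95% interval 52.4 to 53.8%), and 49.6% in the other (48.8 to 50.5%). Equal output does not follow, since reads of the exact 5′ arm of Mirlet7f-2 are not counted, while both arms of Mir98 occur in 1 hairpin. In both libraries the intervals of the chromosome 13 and chromosome 15 leaders lay far above those of the Huwe1 pair.

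**Figure D2:**
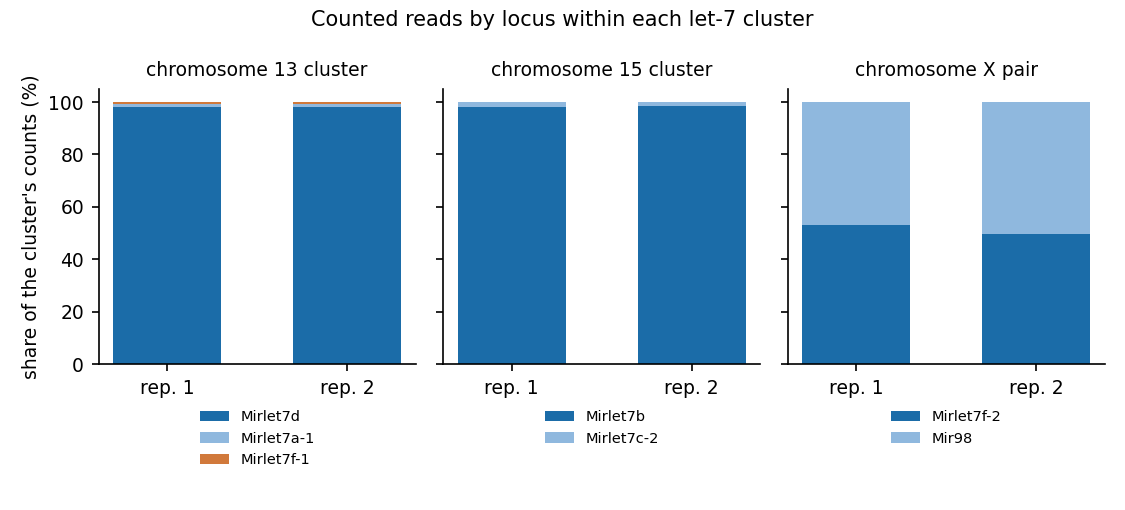
Share of each cluster's counted reads by locus, in percent, with 1 stacked bar for each library. Reads of the exact 5′ arms of Mirlet7a-1, Mirlet7f-1, Mirlet7c-2 and Mirlet7f-2 are in no bar. Mirlet7d and Mirlet7b fill about the whole bar of their clusters in both libraries, at 98.0% or more, whereas Mirlet7f-2 and Mir98 divide theirs at 53.1% and 46.9% in replicate 1.

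The libraries were then compared locus by locus, as the log2 ratio of replicate 1 over replicate 2. Mirlet7d, Mirlet7f-1, Mirlet7f-2, Mirlet7a-1, Mir98, Mirlet7g and Mirlet7i were higher in replicate 1, and Mirlet7b and Mirlet7c-2 were lower. Mirlet7d differed most, with a log2 ratio of 0.77 (exact 95% interval 0.76 to 0.79). Mirlet7b differed most in the other direction, with a log2 ratio of −0.45 (−0.46 to −0.45). All 9 passed an exact two-sided binomial test with Benjamini-Hochberg adjustment at 0.05, against 51.0% of the 522 genes with at least 10 reads. The 7 higher loci stand beside 22.8% of all tested genes, whatever their depth, called higher in replicate 1, and the 2 lower loci beside 28.2% called lower. Over all genes that split depended on the scaling, with 119 genes higher and 147 lower as given, 135 and 123 under TMM, and 135 and 122 under DESeq2 size factors. The 9 loci stood at 7 higher and 2 lower under each of these.

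Such calls follow depth. Among the 173 genes with at least as many reads as Mirlet7f-1, 94.8% were called, so a call at all 9 loci is near the background of genes counted this deeply. That background is for either direction, and the shares called higher and lower above were not matched for depth. The test compares 2 libraries' reads and not conditions. By size, 3 of the 9 loci (Mirlet7d, Mirlet7f-1 and Mirlet7f-2) lay over 1.5-fold apart, near the 30.1% of the 302 genes at 10 CPM or more in both libraries. The median absolute log2 ratio was 0.46 over the 9 loci, 0.46 over all tested genes and 0.36 over the 302 genes. The median signed log2 ratio was 0.46 over the 9 loci and −0.09 over all tested genes.

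**Figure D3:**
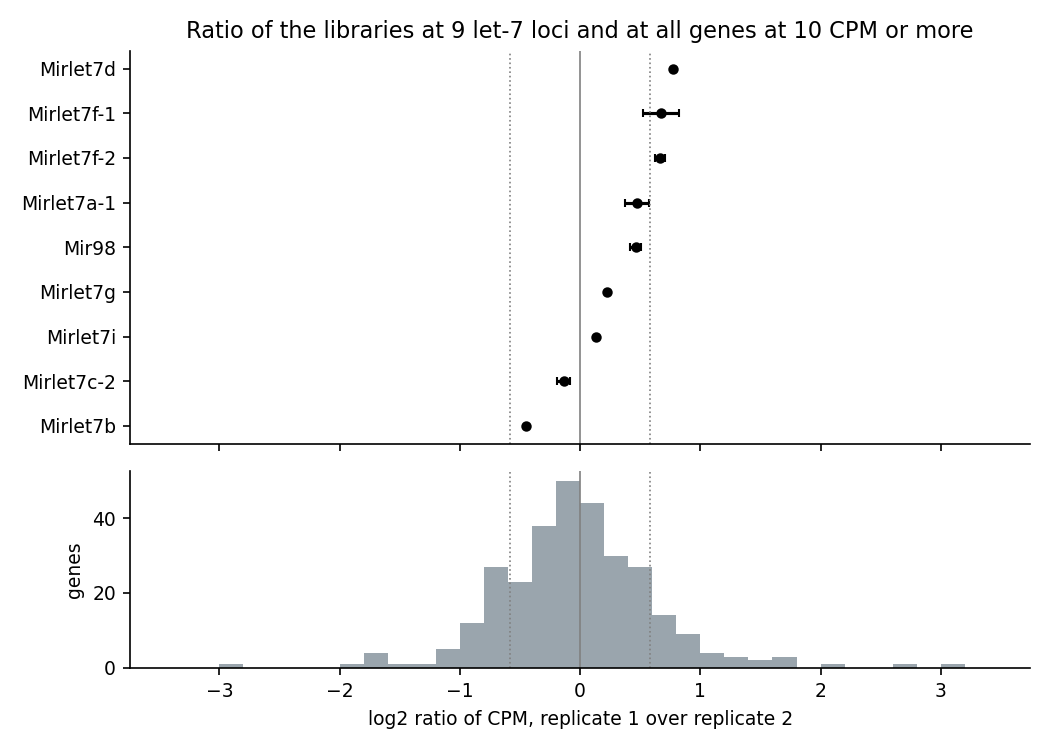
Upper panel, log2 ratio of replicate 1 over replicate 2 for each let-7 locus with its exact 95% binomial interval; lower panel, the number of genes at 10 CPM or more in both libraries by log2 ratio, with dotted lines at 1.5-fold. Mirlet7d, at 0.77, Mirlet7f-1 and Mirlet7f-2 lie past the right dotted line, and Mirlet7b, at −0.45, lies lowest of the 9.

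Loci of one cluster had the same direction in their counted reads. Reads of the exact 5′ arms of Mirlet7a-1, Mirlet7f-1, Mirlet7c-2 and Mirlet7f-2 are in none of these ratios. On chromosome 13 the log2 ratios were 0.77 for Mirlet7d, 0.67 for Mirlet7f-1 (exact 95% interval 0.52 to 0.82) and 0.48 for Mirlet7a-1 (0.37 to 0.58). On chromosome 15 they were −0.45 for Mirlet7b and −0.14 for Mirlet7c-2 (−0.19 to −0.08; adjusted p = 8.50e-07 by the exact binomial test), the highest adjusted p of the 9. Under TMM and under DESeq2 size factors the log2 ratio of Mirlet7c-2 shrank to −0.06, and its call came closest to the threshold of the 9 loci. In Huwe1 the log2 ratios were 0.66 for Mirlet7f-2 (0.62 to 0.71) and 0.46 for Mir98 (0.42 to 0.51). Within each of the 3 clusters the interval of 1 locus lay outside that of another. These intervals cover counting error only, with 1 library on each side, so whether the sizes differ beyond the spread between libraries cannot be told. The single loci differed least among those that were higher, with 0.22 for Mirlet7g (0.22 to 0.23) and 0.13 for Mirlet7i (0.13 to 0.14).

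Because the loci differed in both directions, their sum differed less, relative to its size, than any of them did. The SD of the summed share was 0.594 percentage points around a mean of 25.6%, whereas the SD of single loci was between 6.47% of the mean, for Mirlet7i, and 37.0%, for Mirlet7d. Mirlet7b alone held 6.77% of counted reads in replicate 1 and 9.28% in replicate 2, and Mirlet7d held 3.49% and 2.04%.

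Base composition moved with the ratio of the libraries. Across the 278 genes at 10 CPM or more in both libraries with a mature sequence in RefSeq (92.1% of the 302), the log2 ratio and the mean GC content of the mature arms had Pearson's r = −0.35 and Spearman's rho = −0.37; the points are genes of the same 2 libraries and are not independent replicates. Over 4 bins of GC content with close to equal numbers of genes, the median log2 ratio was 0.17 in the lowest bin and −0.38 in the highest. The 9 loci had a mean GC content between 31.8%, for Mir98, and 50.0%, for Mirlet7i. Mirlet7b and Mirlet7g had the same mean value, 47.7%, and log2 ratios of −0.45 and 0.22, while the GC content of the 5′ arm alone was 45.5% for Mirlet7b and 36.4% for Mirlet7g. Adapter trimming followed different protocol versions in replicates 1 and 2, per the labels, so that version and replicate cannot be told apart. Set against the median of its own bin, a comparison added after the data were seen, the log2 ratio of each of the 9 loci had the same sign as before, with 0.66 for Mirlet7d, −0.57 for Mirlet7b and 0.02 for Mirlet7i.

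**Figure D4:**
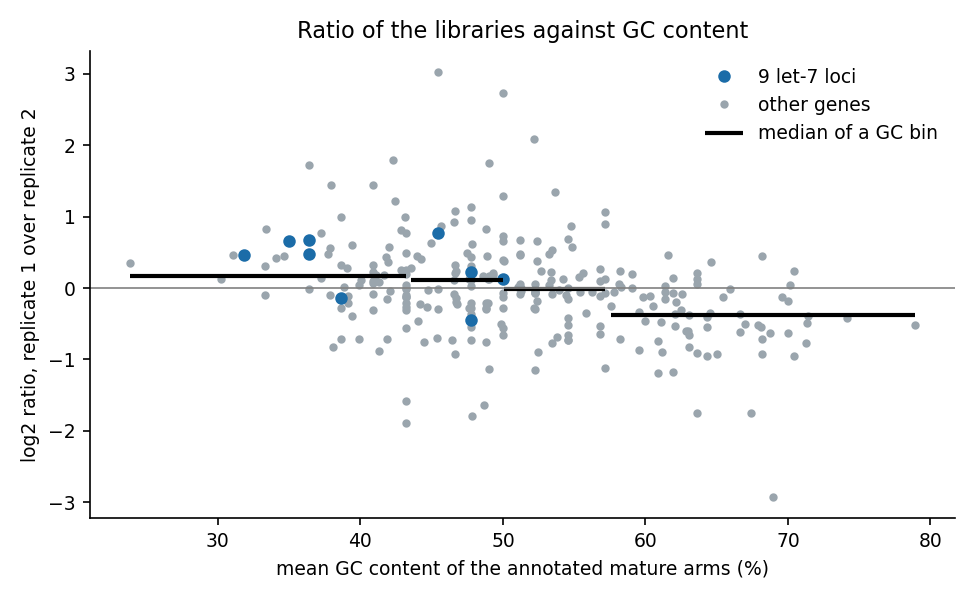
Log2 ratio of replicate 1 over replicate 2 against the mean GC content of each gene's annotated mature arms in percent, with the 9 let-7 loci and the other genes as points and the median of each of 4 bins of GC content as a bar. The bin medians run between 0.17 at the lowest GC content and −0.38 at the highest, and the let-7 loci lie at 50.0% or below.

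Markers of cell types also differed between the libraries. The choroid plexus and ependyma list, with 5 of 8 genes at 10 CPM or more and Mir449b at 0, summed to 11342 CPM in the replicate 1 library, against 3408 CPM in the other. The oligodendrocyte list, with 2 of 4 genes at 10 CPM or more, summed to 5817 and 8786 CPM. In it Mir219b had 0 reads on its own strand, with 15418 and 32488 reads opposite it in replicates 1 and 2. Mir219a-2 had these same numbers of reads on its own strand. The neuron list (7 of 10) summed to 204970 and 184015 CPM. The neuron list includes Mir139, with a log2 ratio of 0.03. Leaving that gene out of the denominator moved the let-7 share from 25.6% to 30.3%, so it weighs heavily in the neuron sum. Mir124a-2 and Mir124a-3, also listed, had 2 and 0 reads and 5 and 5 reads in replicates 1 and 2. These counts leave out reads placed at several loci, so they do not give the level of the mature miRNA. The sum is therefore not a level of neurons. The vascular list (3 of 3) summed to 8456 and 8769 CPM, the list of microglial and leukocyte genes (3 of 5) to 2926 and 2627 CPM, and the erythroid list (1 of 3) to 18.8 and 23.8 CPM. Within the lists, 4 choroid plexus and ependyma genes passed the exact binomial test as higher in replicate 1 and 1 as lower, 4 neuron genes as higher and 3 as lower, 2 vascular genes as higher and 1 as lower, 3 microglial and leukocyte genes as higher, and 2 oligodendrocyte genes as lower, with 0 erythroid genes called, so a sum does not give the direction of every member. The part of these cell types in the let-7 ratios was not tested, and in whole tissue a change in the number of cells and a change in RNA per cell cannot be told apart.

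The strand of a read mattered at 1 locus. Mirlet7f-1 is overlapped on the opposite strand by the annotated miRNA gene Gm24111, and it had 846 and 631 reads on its own strand in replicates 1 and 2 but 0 in both when reads were counted without regard to strand. The other 8 loci are not overlapped by a miRNA gene on the opposite strand.

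The other let-7 loci, which lie beside miR-99/100 or miR-125 genes, are given for scale. Mirlet7e had 26924 and 34627 CPM in replicates 1 and 2, Mirlet7c-1 had 556 and 604 CPM, and Mirlet7a-2 had 252 and 194 CPM. The 9 loci held 26.0% and 25.2% of counted reads in replicates 1 and 2, and these 3 loci held 2.77% and 3.54%. In CPM, the 2 let-7a loci and the 2 let-7c loci each had the same direction between the libraries. The log2 ratio was 0.48 for Mirlet7a-1 and 0.38 for Mirlet7a-2. It was −0.14 for Mirlet7c-2 and −0.12 for Mirlet7c-1 (exact binomial interval −0.20 to −0.04). TMM and DESeq2 size factors raised log2 ratios by 0.07 and 0.08, and the ratio of Mirlet7c-2 shrank to −0.06 under each. Either shift turns the upper end of the Mirlet7c-1 interval positive. The shared let-7c direction therefore depends on the scaling once counting error is allowed for. Reads of the exact arms that these loci share are in no count.

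The loops between the arms, which are removed during maturation, vary in length where the 5′ arms do not. They are shown because LIN28 is known to bind a GGAG motif there; LIN28 itself was not measured in these libraries. The loops of the 8 loci other than Mir98 ran between 26 and 34 bases, and the motif, where found, is in capitals.
Mirlet7g loop: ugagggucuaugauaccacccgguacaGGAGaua
Mirlet7d loop: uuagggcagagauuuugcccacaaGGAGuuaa
Mirlet7b loop: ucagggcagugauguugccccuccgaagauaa
Mirlet7c-2 loop: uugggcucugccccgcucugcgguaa

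The motif, searched on the transcribed strand only, was found once in the loops of Mirlet7a-1, Mirlet7f-1, Mirlet7d, Mirlet7g, Mirlet7i and Mirlet7f-2, and its last base stood 3 bases before the 3′ arm in Mirlet7g and 4 bases before it in the others. The loops of Mirlet7b and Mirlet7c-2 do not hold these letters. With these 8 loci left out, 7.23% of 636 hairpins with both arms in RefSeq hold GGAG between the arms, and of the 21 among them with loops of 26 to 34 bases, 19.0% do. The levels of the loci without the motif differed widely, since Mirlet7b had 80245 ± 17701 CPM and Mirlet7c-2 had 1286 ± 86.0 CPM (SD, n = 2).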

How the data were processed

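Small RNA of 2 hippocampus libraries was measured by miRNA-seq. The deposited files give raw counts per miRNA gene, not normalised; per the file headers, reads were placed on mm10 with GENCODE M21. No source used here names the aligner or counter. Counts on the gene's strand were used, and 4 summary rows stayed out of all sums. Replicate 1 had 11106392 reads and replicate 2 had 12627039, of which 4247092 (38.2%) and 5041568 (39.9%) were counted on miRNA genes; 15.1% and 11.4% were unaligned, and 2.92% and 3.005% were placed once outside these genes.

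Libraries were compared by an exact two-sided binomial test per gene with at least 10 reads over both, Benjamini-Hochberg adjusted over 522 genes. The code was run on simulated counts that held counting error only. Such a run cannot give the error rate under real spread between libraries. With 1 library on each side, edgeR's quasi-likelihood test could not be fitted. Log2 ratios added 0.5 reads to each count. Intervals (Clopper-Pearson, 95%) and floors cover counting error only, as no molecular identifiers are named. RefSeq hairpins were identical to those of M21 at the 8 loci whose loops are described; the loop of Mir98 is not reported here. The members, marker lists and tests were chosen with earlier results of these data known; all 9 members are named, with 3 other let-7 loci. Alternatives were TMM (edgeR 4.0.16), size factors (DESeq2 1.42.0), other filters, the count column, each library left out and, added after seeing the data, GC content. Python 3.11.15, numpy 2.4.6, pandas 2.3.3, scipy 1.17.1, matplotlib 3.10.9 and R 4.3.3 were used.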

Additional observations from a re-analysis of the deposited data

Results flagged for a closer look

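The counts on the strand opposite each gene were not used for the levels. At Mirlet7b this column held 5 reads in replicate 2, above the 3 reads that a count of 0 allows, and 0 in replicate 1; the same locus had 467663 reads on its own strand in replicate 2. No miRNA gene is annotated on the opposite strand there.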

How the results depend on the processing

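The 9 loci held 25.6% of counted reads as a mean of both libraries, 27.4% when reads were counted without regard to strand and 30.3% with Mir139 left out of the denominator, both by construction of a smaller denominator. With one library left out, the share ranged between 25.2 and 26.0%. All 9 loci kept their call and their direction under TMM and DESeq2 size factors, which moved log2 ratios by 0.07 and 0.08; without regard to strand Mirlet7f-1 had 0 reads and no test. Mirlet7c-2 came nearest to losing its call, with a log2 ratio of −0.06 under TMM and under DESeq2 size factors. At 2-fold in place of 1.5-fold, 0 of the 9 loci lay apart. Of 71 alternative values from both libraries, 63 stayed on their side of the threshold or within the spread of the libraries, 8 moved and 0 turned their direction; with one library left out a value is the other library's own and lies within that spread by construction. Relative to genes in the same bin of GC content, an alternative chosen after seeing the data, the log2 ratios kept their sign, with 0.66 for Mirlet7d, −0.57 for Mirlet7b and −0.30 for Mirlet7c-2, and with 0.11 for Mirlet7g and 0.02 for Mirlet7i, against 0.22 and 0.13 without it. No paired analysis was possible because there is 1 group. Reads placed at several loci are missing from the counts, and how many belong to each locus was not measured. The cause of the differences between the libraries was not tested.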

Other observations

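Among mature sequences in RefSeq, the seed GAGGUAG was also found outside the 12 let-7 loci above, in let-7k of Mir7k and in miR-1961 of Mir1961. Mir7k had 16 reads in replicate 1 and 14 in replicate 2, or 3.77 and 2.78 CPM, and did not pass the exact binomial test (adjusted p = 0.586). Mir1961 had 0 reads in both libraries, which allows at most 0.706 and 0.595 CPM in replicates 1 and 2. Both stood far below Mirlet7f-1, the lowest of the 9 loci.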
